A study of Homo sapiens with 15 samples.

Results

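The genes examined here were 10 heat shock chaperones and co-chaperones, HSPA6, HSPA1A, HSPA1B, HSPA8, HSPH1, DNAJB1, BAG3, HSP90AA1, HSPB1 and HSPD1, out of 58219 genes in a count table of BEAS-2B cells treated with fine particulate matter (PM2.5). They were taken by symbol, each from the row of its Ensembl identifier, and were chosen with earlier results of these data known. BEAS-2B is an immortalized line of human bronchial epithelial cells, so all groups come from 1 line. All cells were grown without serum in bronchial epithelial growth medium on plates coated with collagen. PM2.5 from Beijing had been taken off filters by sonication in water. The 24-h groups received medium alone (vehicle control) or PM2.5 once, at 1 or 30 µg/cm2. The 7-day groups received medium alone or, day after day with washes between, PM2.5 at 1 µg/cm2. The labels give 7 daily exposures and the methods give 6, with cells collected on day 7 after plating at a lower density. Each of the 5 groups had 3 libraries, numbered by experiment, and experiments of the 24-h and the 7-day protocol are different experiments.

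Heat shock proteins bind unfolded proteins and help them fold, or hand them over for degradation. In heat, oxidative or metal stress, heat shock factor 1 (HSF1) binds heat shock elements in their promoters and raises their transcription. HSPA6 and HSPA1A/HSPA1B encode stress-inducible HSP70 proteins, and HSPA6 is known for being nearly silent in unstressed cells. HSPA8 encodes the constitutive HSP70, and HSPH1, DNAJB1 and BAG3 encode co-chaperones that drive or steer the HSP70 cycle. HSP90AA1 encodes the inducible HSP90, HSPB1 the small heat shock protein HSP27, and HSPD1 the mitochondrial chaperonin HSP60.

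Promoter sequences were searched for the heat shock element, the known site of HSF1. They come from RefSeq (GRCh38.p14) for all 10 genes and span 250 bases before to 50 bases after the RefSeq start. A heat shock element was searched on both strands as 3 adjacent units of 5 bases, alternating NGAAN and NTTCN. Of 35116 promoters of that length, 168 (0.478%) held an exact element and 2173 (6.19%) held one with up to 1 mismatch. HSPA6 and HSPA8 held exact elements. The 250 bases before the HSPA6 start (chr1:161524290-161524539, plus strand) read, with the exact element in capitals:
HSPA6: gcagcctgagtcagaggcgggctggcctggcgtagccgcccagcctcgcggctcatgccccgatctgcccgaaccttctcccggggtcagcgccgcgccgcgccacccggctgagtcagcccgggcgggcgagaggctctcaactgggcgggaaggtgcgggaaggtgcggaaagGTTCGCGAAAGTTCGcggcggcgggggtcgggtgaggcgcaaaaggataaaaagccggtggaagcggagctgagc

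The stretches around the elements of 5 genes are given below on the strand of the gene, with the 15 bases of the element in capitals. The HSPA6 and HSPA8 stretches are exact, and those of HSPA1A, HSPA1B and HSPB1 differ from the pattern at 1 base. Where a gene held an exact element, its placements with 1 mismatch are not shown. HSPA6 held 4 placements with up to 1 mismatch, the exact one among them, and HSPA8 held 2, both exact. They lie at chr1:161524459-161524485 (HSPA6), chr11:123062347-123062373 and chr11:123062172-123062198 (HSPA8, minus strand), chr6:31815430-31815456 (HSPA1A), chr6:31827626-31827652 (HSPA1B) and chr7:76302484-76302510 (HSPB1). The RefSeq start of HSPA8 lies inside the span that the count table gives the gene, so both HSPA8 stretches do too.
HSPA6, centred at -68 from the start: ggaaagGTTCGCGAAAGTTCGcggcgg
HSPA8, centred at -224 from the start: cgagctTGAAAGTTCCAGAACgctgcg
HSPA8, centred at -49 from the start: gggcccCTTCTGGAAGGTTCTaagata
HSPA1A, centred at -100 from the start: aaccctGGAATATTCCCGACCtggcag
HSPA1B, centred at -99 from the start: acccctGGAATATTCCCGACCtggcag
HSPB1, centred at -176 from the start: aacgagAGAAGGTTCCAGATGagggct
The element of HSPA1A and that of HSPA1B had the same letters. The windows of DNAJB1, HSPH1, HSP90AA1, BAG3 and HSPD1 held no placement with up to 1 mismatch, which says only that these letters are not in this window. Each gene was searched at 1 start, and any other start of a gene was not searched. Among these genes, the starts used for DNAJB1, BAG3 and HSPD1 lie inside the spans that the count table gives them. A match is a description of the sequence and not a measured site.

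Expression is given as CPM, the read count relative to the size of the library, with TMM scaling in edgeR. The libraries held 21460981 to 34724765 counted reads, and 3 counts in a library equal 0.0864 to 0.140 CPM, a floor that covers counting error only. Comparisons used edgeR's quasi-likelihood test on all 15 libraries and 17599 tested genes. A gene passed when its adjusted p (Benjamini-Hochberg) was below 0.05 and its level changed by 0.6 or more in log2. The 7 epithelial markers (KRT5, KRT8, KRT18, KRT19, CDH1, EPCAM and TP63) were counted in every library, PTPRC, CD68, CD3E, PECAM1, VWF, CDH5, FOXJ1 and MUC5AC had at most 12 counts, and SCGB1A1 had 0. The fibroblast-associated genes COL1A1 and COL3A1 were at 22.3 to 52.0 and 5.27 to 11.5 CPM, and PDGFRA was under 1 CPM. The epithelial markers summed to 2004 to 2522 CPM in the 24-h controls and to 843 to 1309 CPM at 30 µg/cm2. They summed to 2270.3 to 2785 CPM in the 7-day controls and to 1411 to 1561 CPM after daily exposure. The part of these differences in the results below was not tested. The sources used here number the experiments as batches of 1 line, so p-values measure the spread between these experiments. The spread of a gene was estimated over all 15 libraries, so SEs and intervals at 7 days also hold the spread between the 24-h experiments. In bulk RNA, fewer cells that express a gene and less RNA per cell cannot be told apart.

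One set of libraries stood apart. In 24-h experiment 2, HSPA8 in the control was 0.266 of the mean of experiments 1 and 3 on the log2 scale, HSPH1 0.375, HSP90AA1 0.430 and HSPD1 0.490, whereas HSPB1 was 1.60 times that mean. In the same library, 6.93% of all tested genes were at least 1 log2 unit below that mean and 6.28% at least 1 above it. At 1 µg/cm2, experiment 2 was at 0.403 of that mean for HSPA8, 0.441 for HSPH1, 0.514 for HSP90AA1, 0.609 for HSPD1 and 2.26 for HSPB1. There 12.4% of all tested genes were at least 1 log2 unit below the mean and 9.78% at least 1 above. At 30 µg/cm2, it was at 0.654 to 1.17 for HSPH1, HSP90AA1, HSPA8, HSPD1, DNAJB1, BAG3 and HSPA1A. HSPA6 was at 0.277 and HSPB1 at 1.70 in that library. In it 9.47% of all tested genes were at least 1 log2 unit below and 7.69% at least 1 above. The libraries of experiment 2 also had the highest share of mitochondrial counts in each 24-h group, at 4.40%, 4.17% and 4.13% in the control, at 1 µg/cm2 and at 30 µg/cm2, against 2.76% to 3.42% in experiments 1 and 3. The part of this in the results was not tested. Log2 fold-changes without experiment 2 are given with the results at 24 h, and rest on 24-h experiments 1 and 3 only.

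Reads of the HSP70 genes can only be told apart in part. Of all 50-base windows in the exons, 44.3% of those of HSPA6 (ENSG00000173110.7, chromosome 1 from 161524540 to 161526910, plus strand) occur once on the chromosomes of GRCh38, and 27.4% of HSPA1A (ENSG00000204389.9, chromosome 6 from 31815464 to 31817946) and 28.6% of HSPA1B (ENSG00000204388.6, chromosome 6 from 31827735 to 31830255) do. HSPA1A shares 72.6% of its windows with HSPA1B. When the alternate and unplaced sequences of the genome file were also searched, 0% of the windows of HSPA1A and HSPA1B were unique. The share for the other genes was 79.7% (HSPD1) to 100% (BAG3). The neighbouring copy HSPA7 had 0 to 24 counts, 3.64% of the HSPA6 total, and HSPA1L had 0 to 2 counts, 2.72% of the HSPA1A total. The annotated copies of DNAJB1, HSP90AA1, HSPA8, HSPB1 and HSPD1 held at most 0.173% of the gene's total.

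HSPA6, the most strictly inducible HSP70, was the gene that rose with the high concentration. Its level in the 24-h controls was 0.211, 0.141 and 0.425 CPM in experiments 1, 2 and 3, from 7, 3 and 12 reads. At 1 µg/cm2 for 24 h it was 0.544, 0.0496 and 0.457 CPM, from 16, 1 and 13 reads. At 30 µg/cm2 it was 16.5, 4.61 and 17.3 CPM, from 503, 133 and 362 reads. All 3 libraries at 30 µg/cm2 were above all libraries of the other groups, and experiment 2 was the lowest of the 3. In the 7-day protocol the controls held 0.456, 0.450 and 0.565 CPM, and the cells exposed each day held 0.778, 0.404 and 2.43 CPM. The daily-exposed library of experiment 3 was high, and those of experiments 1 and 2 were on either side of the controls. At 30 µg/cm2, HSPA6 was 47.7-fold above vehicle control, or 5.58 in log2 (adjusted p = 0.00046, SE 0.77), with all 9 pairs of libraries higher. The log2 fold-change was 5.73 without experiment 2, and it was 5.30 to 6.10 when 1 library was left out. Against 1 µg/cm2, HSPA6 at 30 µg/cm2 was higher by 5.10 in log2 (adjusted p = 0.00089, SE 0.74), and by 5.04 without experiment 2. Neither exposure to 1 µg/cm2 passed. After the single exposure the log2 fold-change was 0.48 with a 95% interval of -1.38 to 2.34 (0.69 without experiment 2), and after daily exposure it was 1.28 with an interval of -0.23 to 2.79. Without the daily-exposed library of experiment 3, the latter was 0.25.

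**Figure D1:**
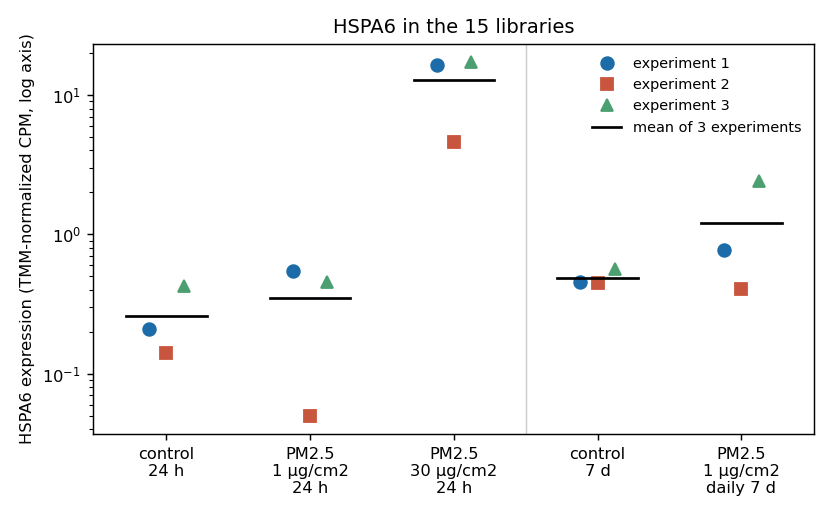
HSPA6 expression in TMM-normalized CPM on a log axis, by group, with a point for each experiment and a bar at the mean of 3 experiments. The 3 libraries at 30 µg/cm2 lie between 4.61 and 17.3 CPM, above all 12 other libraries, which lie between 0.0496 and 2.43 CPM.

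The stress-inducible pair HSPA1A and HSPA1B gave few reads. HSPA1B was listed at 0 counts in all 15 libraries, which sets no upper limit on its level because its reads may not have been assigned, and it was not tested, so 9 of the 10 genes passed the filter on low counts. HSPA1A had 6 to 61 counts per library. Its level was 1.84, 0.377 and 1.06 CPM in the 24-h controls, 0.816, 0.297 and 0.948 CPM at 1 µg/cm2, and 1.22, 1.28 and 2.01 CPM at 30 µg/cm2. It was 0.418, 0.289 and 0.439 CPM in the 7-day controls and 0.292, 0.202 and 0.281 CPM after daily exposure. The control range at 24 h held the libraries at 30 µg/cm2 except that of experiment 3, while the libraries at 30 µg/cm2 were all above those at 1 µg/cm2. With so few unique windows and reads, the level of HSPA1A is that of the reads that could be assigned, not of both genes. HSPA1A did not pass at 30 µg/cm2 against control, with a log2 fold-change of 0.42 and a 95% interval of -0.59 to 1.42 (0.11 without experiment 2). At 1 µg/cm2 it was at -0.66 (-0.71 without experiment 2), and after daily exposure at -0.56.

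HSPA8, the constitutive HSP70 of the cytosol (ENSG00000109971.13, chromosome 11 from 123057489 to 123063230, minus strand), was at 2917, 831 and 3331 CPM in the 24-h controls. It was at 1681, 729 and 1945 CPM with 1 µg/cm2 and at 1889, 2295 and 2023 CPM with 30 µg/cm2. Within experiments 1 and 3 the treated cells were below their controls at both concentrations, and within experiment 2 the cells at 30 µg/cm2 were above it. The log2 changes at 30 µg/cm2 were -0.63, 1.47 and -0.72 in experiments 1, 2 and 3. In the fit of all libraries, HSPA8 passed at neither concentration, with log2 fold-changes of -0.19 (SE 0.40, adjusted p = 0.834) at 30 µg/cm2 and -0.70 (SE 0.40, adjusted p = 1) at 1 µg/cm2. Without experiment 2 both passed, at -0.69 (adjusted p = 0.00011) and -0.77 (adjusted p = 0.00043). A fit with a replicate block keeps experiment 2 and compares cells within an experiment. In it neither passed, with HSPA8 at 0.077 (adjusted p = 0.885) at 30 µg/cm2 and -0.64 (adjusted p = 0.596) at 1 µg/cm2. In the 7-day protocol HSPA8 was at 734, 695 and 785 CPM in the controls and at 477, 468 and 559 CPM after daily exposure. These groups did not overlap, and the log2 fold-change of -0.56 had a 95% interval of -1.43 to 0.31.

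HSPH1, an HSP110 nucleotide exchange factor for HSP70 (ENSG00000120694.19, chromosome 13 from 31134974 to 31162388, minus strand), was at 414, 159.8 and 438 CPM in the 24-h controls. It was at 302, 142 and 343 CPM with 1 µg/cm2 and at 436, 295 and 467 CPM with 30 µg/cm2. At 30 µg/cm2 every experiment was above its own control, by 0.07, 0.88 and 0.09 on the log2 scale, so most of the difference lay in experiment 2. The change of 0.24 in log2 (adjusted p = 0.74, SE 0.35) did not pass, and it was 0.070 without experiment 2. The change at 1 µg/cm2 was -0.36 (-0.39 without experiment 2). The 7-day controls were at 110.1, 109.0 and 110.2 CPM and the cells exposed each day at 114, 113 and 144 CPM, which did not overlap but differed by 0.17 on the log2 scale (SE 0.35, adjusted p = 0.89).

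DNAJB1, the J-domain protein that stimulates the HSP70 ATPase (ENSG00000132002.7, chromosome 19 from 14514770 to 14529770, minus strand), was at 252, 165 and 286 CPM in the 24-h controls. It was at 208, 164 and 226 CPM with 1 µg/cm2 and at 245, 261 and 249.8 CPM with 30 µg/cm2. The groups overlapped between control and each concentration, and all libraries at 30 µg/cm2 were above those at 1 µg/cm2. Against control, the log2 fold-change was 0.10 with a 95% interval of -0.28 to 0.48 at 30 µg/cm2 and -0.23 with an interval of -0.61 to 0.15 at 1 µg/cm2. Without experiment 2 these were -0.14 and -0.30, and neither passed. In the 7-day protocol DNAJB1 was at 171, 161 and 183 CPM in the controls and 119, 109.8 and 134 CPM after daily exposure. The daily-exposed libraries were all lower, by -0.51 in log2 (adjusted p = 0.265, SE 0.18). DNAJB1 shares 5.75% of its exon bases with TECR on the other strand.

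BAG3, which links HSP70 to small heat shock proteins and to selective autophagy (ENSG00000151929.9, chromosome 10 from 119651370 to 119677819, plus strand), was at 135, 102 and 148 CPM in the 24-h controls, 121, 92.0 and 126 CPM with 1 µg/cm2 and 118, 113 and 128 CPM with 30 µg/cm2. The 95% intervals of its log2 fold-changes were -0.50 to 0.13 at 1 µg/cm2 and -0.42 to 0.22 at 30 µg/cm2. Without experiment 2 the change was -0.19 at 1 µg/cm2 and -0.22 at 30 µg/cm2. In the 7-day protocol BAG3 was at 81.6, 75.5 and 79.2 CPM in the controls and 68.6, 62.04 and 59.1 CPM after daily exposure, lower in all 9 pairs of libraries (-0.32 in log2, adjusted p = 0.423, SE 0.15).

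HSP90AA1, the inducible HSP90 that matures kinases and receptors (ENSG00000080824.18, chromosome 14 from 102080738 to 102139699, minus strand), was at 3977, 1794 and 4371 CPM in the 24-h controls. It was at 3017, 1668 and 3496 CPM with 1 µg/cm2 and at 2488, 2737 and 2628 CPM with 30 µg/cm2. Experiments 1 and 3 were lower at 30 µg/cm2 than their controls, with log2 changes of -0.68 and -0.73, and experiment 2 was higher by 0.61. HSP90AA1 did not pass in the fit of all libraries (log2 fold-change -0.37, SE 0.30, adjusted p = 0.503) and passed without experiment 2, at -0.72 (adjusted p = 0.00019). With the replicate block, which keeps experiment 2, it was at -0.24 (adjusted p = 0.427) and did not pass. At 1 µg/cm2 it was at -0.31, and at -0.35 without experiment 2. In the 7-day protocol it was at 721, 694 and 810.2 CPM in the controls and 666, 655 and 839 CPM after daily exposure, which overlapped (95% interval of the log2 fold-change, -0.68 to 0.59). It shares 3.75% of its exon bases with WDR20 on the other strand.

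HSPB1, or HSP27, a small heat shock protein that holds unfolded proteins in solution (ENSG00000106211.8, chromosome 7 from 76302544 to 76304295, plus strand), was below its control in every experiment at the high concentration and after daily exposure. It was at 169, 289 and 194 CPM in the 24-h controls, 159, 361 and 160.3 CPM with 1 µg/cm2 and 107, 190.2 and 117 CPM with 30 µg/cm2. Here experiment 2 was the highest in all 3 groups, and within each experiment the cells at 30 µg/cm2 were below their control, with log2 changes of -0.66, -0.60 and -0.73. Without a term for the experiment the change was -0.65 in log2 (adjusted p = 0.222, SE 0.31). In the fit with a replicate block, which compares cells within an experiment, HSPB1 fell by 0.67 (SE 0.11, adjusted p = 0.00055), and without experiment 2 it fell by 0.71 (adjusted p = 9.77e-05). HSPB1 at 1 µg/cm2 was at 0.06 in log2, and at -0.18 without experiment 2. In the 7-day protocol HSPB1 was at 222, 200.1 and 238 CPM in the controls and 146, 116 and 137 CPM after daily exposure, with no overlap. The log2 fold-change was -0.73 in both fits, with adjusted p = 0.373 (SE 0.31) without the block and 0.0032 (SE 0.11) with it. In a fit of the compared 7-day libraries alone HSPB1 passed, at -0.72 (adjusted p = 0.00056).

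HSPD1, the mitochondrial chaperonin (ENSG00000144381.16, chromosome 2 from 197486581 to 197516737, minus strand), was at 1067, 549 and 1179 CPM in the 24-h controls, 754, 497 and 883 CPM with 1 µg/cm2 and 900.4, 901 and 968 CPM with 30 µg/cm2. It was at 555, 522 and 577 CPM in the 7-day controls and 586, 572 and 599 CPM after daily exposure. Treated and control libraries overlapped in each of these comparisons. The log2 fold-changes were -0.01 at 30 µg/cm2 (95% interval -0.53 to 0.50), -0.39 at 1 µg/cm2 (-0.91 to 0.13) and 0.09 after daily exposure (-0.43 to 0.60). Without experiment 2 HSPD1 was at -0.28 (adjusted p = 0.027) at 30 µg/cm2 and -0.45 (adjusted p = 0.0096) at 1 µg/cm2, both under the threshold of 0.6. HSPD1 shares 6.62% of its exon bases with HSPE1, its co-chaperonin gene on the other strand.

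**Figure D2:**
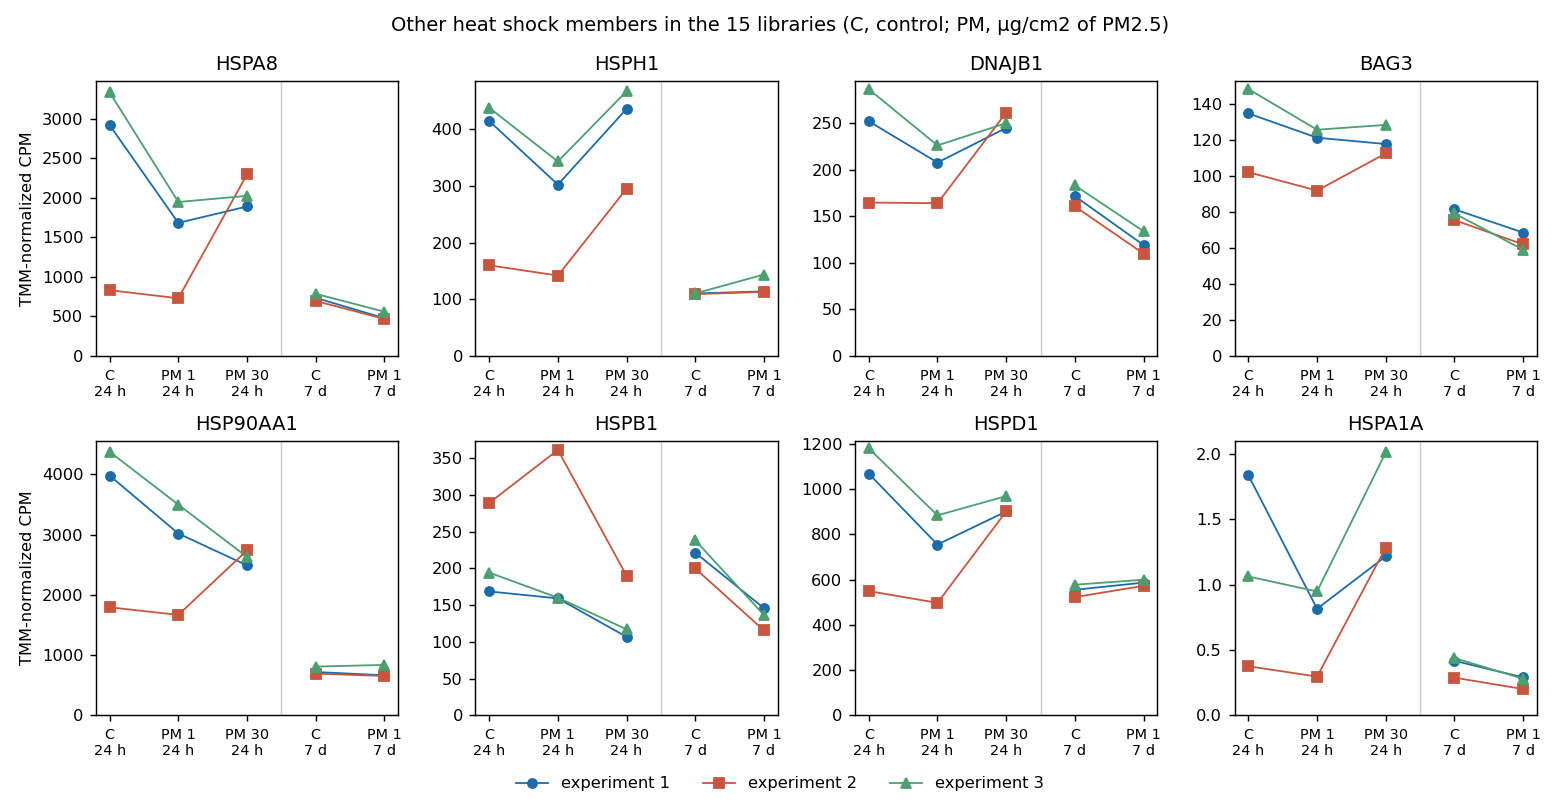
TMM-normalized CPM of the 8 other genes that had counts, by group, with a line for each experiment within a protocol. Experiment 2 starts low at 24 h for HSPA8, HSPH1, HSP90AA1 and HSPD1 and high for HSPB1. Libraries within a 7-day group lie closer together than the 24-h controls do.

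Levels of different genes were compared per kilobase of exon, over all exon bases and not unique windows alone. HSPA6 and HSPA1A, with 44.3% and 27.4% unique windows, were placed by the reads that could be assigned. The order thus does not give the level of the HSPA1A and HSPA1B pair against HSPA6 or the other genes. In the 24-h controls the order by mean CPM per kb was HSP90AA1 (644 ± 265), HSPA8 (487 ± 276), HSPD1 (219 ± 79.2), HSPB1 (133 ± 38.8), DNAJB1 (63.8 ± 17.1), BAG3 (46.8 ± 8.65), HSPH1 (40.2 ± 18.4), HSPA1A (0.440 ± 0.294) and HSPA6 (0.109 ± 0.062), each as SD with n = 3. The ranges of neighbours overlapped along this order except between HSPB1 and DNAJB1 and between HSPH1 and HSPA1A. At 30 µg/cm2, HSPA6 was at 5.41 ± 3.01 CPM per kb (SD, n = 3), above the assigned reads of HSPA1A without overlap. In its own assigned reads it was still below all 7 abundant genes. In the 7-day controls HSPA8, HSP90AA1, HSPB1 and HSPD1 were at 152, 141, 135 and 129.9 CPM per kb, and neighbours in that order overlapped. Together the 10 genes took 0.378% to 0.915% of the counts in the 24-h controls, 0.6003% to 0.642% at 30 µg/cm2 and 0.261% to 0.288% in the 7-day controls.

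Against vehicle control, PM2.5 at 30 µg/cm2 changed 1 of the 9 tested genes, HSPA6, and 8.07% of all 17599 tested genes at 24 h. The median log2 fold-change of the 9 was -0.01, beside 0.03 over all tested genes. Only HSPA6 had libraries that did not overlap with the controls, which 22.8% of all tested genes did. In the blocked fit, HSPB1 passed besides HSPA6, and 15.2% of all genes did. Without experiment 2, HSPA6 passed higher and HSPB1, HSPA8 and HSP90AA1 lower, and 19.1% of all genes did. Of the 9 log2 fold-changes in the fit of all libraries, 5 were below 0.

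**Figure D3:**
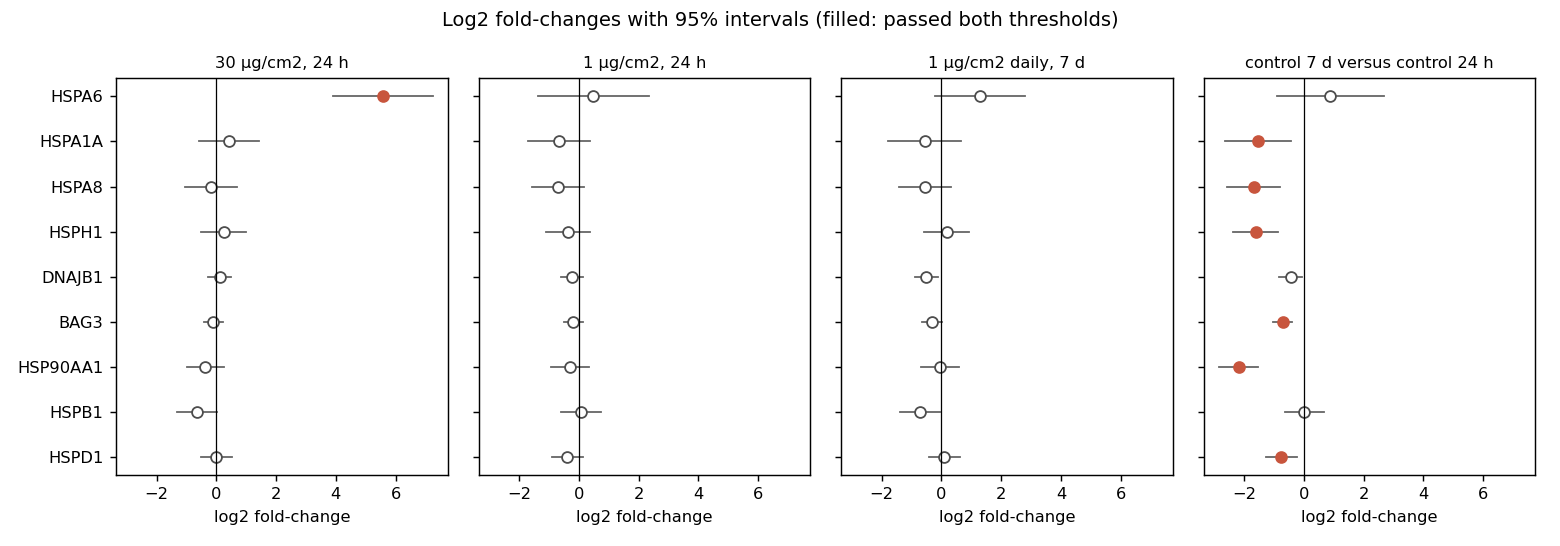
Log2 fold-changes of the 9 tested genes with 95% intervals from edgeR's quasi-likelihood fit, in the 3 comparisons of PM2.5 with its control and between the controls of both protocols. Filled points passed both thresholds, which HSPA6 did at 30 µg/cm2 and 6 genes did, all lower, between the controls.

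**Figure D4:**
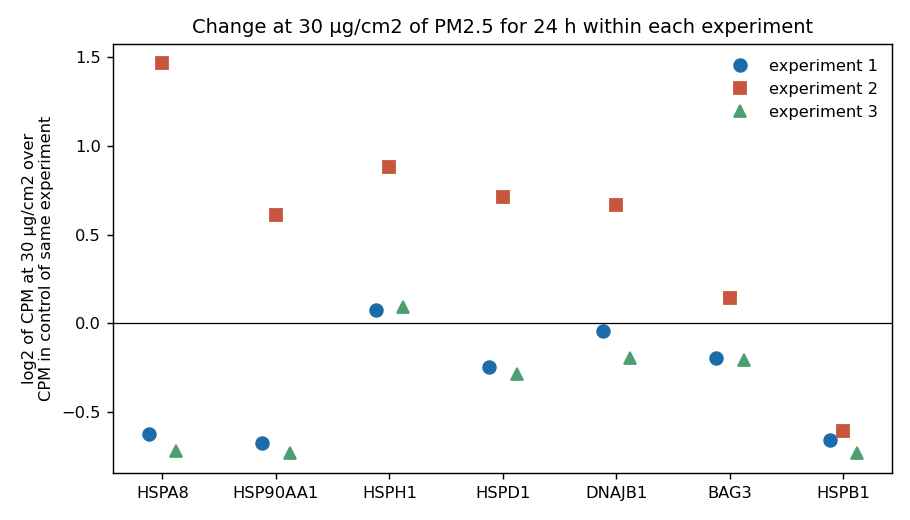
Log2 ratio of the CPM at 30 µg/cm2 to that of the control of the same 24-h experiment, for 7 abundant genes. Experiment 2 lies above 0 for 6 of them, from 0.14 for BAG3 to 1.47 for HSPA8, and HSPB1 lies below 0 in all 3 experiments.

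After a single exposure to 1 µg/cm2 of PM2.5, none of the 9 tested genes passed in edgeR's test, beside 0.0625% of all tested genes. In DESeq2, 0 passed beside 0.222% of all genes, and 0 had an unadjusted p-value under 0.05 in edgeR's test beside 3.03% of all genes. Of the 9, 7 were below control, with a median log2 fold-change of -0.31 against 0.01 over all genes. Without experiment 2, HSPA8 passed as 2.11% of all genes did. After daily exposure to 1 µg/cm2, 0 of the 9 passed in edgeR's test beside 0.227% of all genes, and 0 passed in DESeq2 beside 1.43%. In edgeR's test, unadjusted p-values were under 0.05 for 2 of the 9, DNAJB1 and HSPB1, and for 11.9% of all genes. Blocking by experiment, 1 gene passed, HSPB1, and 4.39% of all genes did. In that fit DNAJB1 (log2 fold-change -0.51) and BAG3 (-0.32) had adjusted p-values of 0.0253 and 0.0351 but changed by less than the threshold of 0.6. With the compared libraries only, 1 gene passed, HSPB1, beside 6.23% of all genes. Libraries of exposed and control cells did not overlap for HSPA8, DNAJB1, BAG3, HSPB1 (lower) and HSPH1 (higher), which is 5 of 10 beside 42.9% of all tested genes.

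Between 30 and 1 µg/cm2, 1 of the 9 genes differed, HSPA6, beside 7.84% of all genes. With the replicate block, HSPH1 (0.69, adjusted p = 0.0027) and HSPA1A (1.19, adjusted p = 0.033) were also higher at 30 µg/cm2 and HSPB1 was lower (-0.66, adjusted p = 0.00058), as 15.6% of all genes passed. Without experiment 2 none of these 3 passed, with HSPH1 at 0.46, HSPA1A at 0.82 (adjusted p = 0.098) and HSPB1 at -0.54. Libraries did not overlap for HSPA6, HSPA1A, DNAJB1 and HSPD1, all higher at 30 µg/cm2, beside 21.6% of all genes.

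The response to daily exposure was compared with both responses at 24 h. It differed from the response to a single 1 µg/cm2 in none of the 9 genes by edgeR's test (0 with an unadjusted p-value under 0.05, and 0 in DESeq2), and in 0.0% of all genes (1245 with an unadjusted p-value under 0.05, and 66 in DESeq2). In the blocked fit HSPB1 differed, by -0.72 (adjusted p = 0.047), as 1.03% of all genes did. Without experiment 2, HSPH1 (0.56, adjusted p = 0.0093), HSPD1 (0.54, adjusted p = 0.0062) and HSPB1 (-0.55, adjusted p = 0.013) stayed under the threshold of 0.6, and 9.84% of all genes passed. Against the response to 30 µg/cm2, HSPA6 rose less after daily exposure, by -4.29 on the log2 scale (95% interval -6.53 to -2.06), but its adjusted p of 0.0545 missed the threshold, and 0 of the 9 genes and 1.82% of all genes passed in edgeR's test. Unadjusted p-values were under 0.05 for 2 of the 9, HSPA6 and DNAJB1, and for 15.5% of all genes. Blocking by experiment, HSPA6 (-4.51, adjusted p = 0.00037) and DNAJB1 (-0.65, adjusted p = 0.024) passed, beside 14.6% of all genes. Without 24-h experiment 2, HSPA6 (-4.46) and HSP90AA1 (0.68) passed, beside 21.6% of all genes, and DESeq2 called 1 gene, HSPA6, beside 4.48% of all genes. HSPA6 also passed without a filter (-4.28), with the compared libraries only (-4.28, adjusted p = 0.047), without the 30 µg/cm2 library of experiment 2 (-4.69) and without the daily-exposed library of experiment 3 (-5.32).

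The untreated controls of both protocols differed in most of these genes. Of the 9 tested genes, 6 were lower in the 7-day controls and 0 were higher, beside 21.9% of all genes that passed in either direction, and the median of the 9 was -0.76 against 0.02 over all genes. In log2, HSP90AA1 changed by -2.19 (adjusted p = 0.00021, SE 0.31), HSPA8 by -1.68 (adjusted p = 0.0081, SE 0.41) and HSPH1 by -1.62 (adjusted p = 0.0042, SE 0.36). HSPA1A changed by -1.54 (adjusted p = 0.037, SE 0.51), HSPD1 by -0.76 (adjusted p = 0.031, SE 0.24) and BAG3 by -0.71 (adjusted p = 0.0032, SE 0.15). DNAJB1 (-0.45, adjusted p = 0.0739), HSPB1 (0.02) and HSPA6 (0.88) did not pass. For HSP90AA1, HSPA8, HSPH1 and BAG3 all 7-day libraries were below all 24-h libraries and for HSPA6 all were above, which makes 5 of 10 genes without overlap beside 52.3% of all tested genes. Without 24-h experiment 2, the 6 genes and DNAJB1 (-0.66) passed, beside 31.0% of all genes. Scaling by total count alone raised the median of all genes from 0.02 to 0.16, and the share of passing genes that were higher from 50.7% to 65.8%, and left 3 of the 6 calls, HSP90AA1, HSPA8 and HSPH1. The call of HSPA1A, which rests on 8 to 61 reads in the 24-h controls and 9 to 14 in the 7-day controls, and that of HSPD1 were lost in 5 of the 6 fits that left out 1 control library, all but that without the 24-h control of experiment 2. In those 5 fits HSPA1A was at -1.65 to -0.97 and HSPD1 at -0.79 to -0.58. HSPA1A also lost its call in a fit of the compared libraries alone, at -1.56 (adjusted p = 0.056). The protocols differ in plating density, days in culture and washes and were run as different experiments, and these cannot be told apart.

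Other genes of the chaperone network were counted from 7 lists that hold 111 genes found in the table, 103 of them tested and 8 of them in more than 1 list. At 30 µg/cm2, 5 of the 103 rose and 3 fell, which is 7.77% beside 8.07% of all genes. The mitochondrial HSP70 HSPA9 (mortalin) was 0.85 above control on the log2 scale (SE 0.20, adjusted p = 0.0138), at 1539, 1169 and 1595 CPM after 872, 559.5 and 960.4 CPM in the controls. HSPA13, an HSP70-like ATPase of microsomes, rose by 0.97 (SE 0.18, adjusted p = 0.0034). Among the 37 tested J-domain proteins DNAJA4 rose by 1.32 and DNAJC18 by 0.66, while DNAJB4 (-0.69) and DNAJC22 (-1.13) fell. DNAJA4 was at 22.8, 10.4 and 22.5 CPM in the controls and at 58.1, 25.7 and 55.9 CPM at 30 µg/cm2. HSP90B1, the HSP90 of the endoplasmic reticulum, fell by 0.67, and PFDN2, a prefoldin subunit, rose by 0.81. Without experiment 2 PFDN2 was at 0.595, under the threshold of 0.6. None of the 17 other genes known to be heat inducible and none of the 4 tested small heat shock proteins passed. In a fit of the 6 compared libraries alone, none of these 8 passed, and 2.23% of all genes did.

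Neither of the heat shock factors HSF1 and HSF2 passed in a comparison with PM2.5. HSF1 was at 122, 110.3 and 124 CPM in the 24-h controls and at 144, 152 and 148 CPM at 30 µg/cm2, all higher. The change of 0.32 in log2 (adjusted p = 0.128, SE 0.12) met neither threshold. HSF2 was at 35.4, 45.7 and 44.4 CPM in the controls and at 37.2, 41.9 and 39.99 CPM at 30 µg/cm2, which overlapped (-0.07, SE 0.11). At 1 µg/cm2, 0 of the 103 network genes passed after the single or the daily exposure, in edgeR's test. The log2 fold-changes of HSF1 were -0.07 and -0.04 in these comparisons, and those of HSF2 were -0.00021 and 0.07. Between 30 and 1 µg/cm2, 8 of the 103 were higher and 1 lower, which is 8.74% beside 7.84% of all genes. Those higher were HSPA9 (1.16), HSPA13 (0.88), DNAJA4 (1.40), PFDN2 (0.98), DNAJA3 (0.84), IER5 (0.74), DNAJB9 (0.68) and FKBP4 (0.62), and DNAJC22 (-1.20) was lower. In a fit of the compared libraries alone, 0 network genes passed, beside 0.918% of all genes. Without experiment 2 FKBP4 was under the threshold of 0.6, at 0.47. IER5 encodes a heat-inducible regulator of HSF1, and FKBP4 an immunophilin that works with HSP90.

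Between the untreated controls, 31 of the 103 network genes fell and 6 rose, which is 35.9% beside 21.9% of all genes. HSP90 and its cochaperones held 12 that fell of 23 tested and none that rose, with a median log2 fold-change of -0.64. STIP1, which bridges HSP70 and HSP90, changed by -1.51 (SE 0.23), AHSA1, which stimulates the HSP90 ATPase, by -1.34, the HSP70 exchange factor BAG2 by -1.16 and the constitutive HSP90AB1 by -1.10. The chaperonins and prefoldins held 9 that fell of 15, with a median of -0.83, led by HSPE1 (-1.998, SE 0.28), TCP1 (-1.32), CCT7 (-1.19) and CCT5 (-1.15), the last 3 of them subunits of the cytosolic chaperonin. HSPE1 was at 69.1, 53.7 and 85.4 CPM in the 24-h controls and at 17.5, 18.4 and 16.2 CPM in the 7-day controls. Of the 17 genes in the list of other genes known to be heat inducible, 10 fell and none rose, with a median of -0.88, and DNAJA1 (-1.34) was among them. Of these 10, STIP1, AHSA1, FKBP4, CACYBP, HSPE1 and DNAJA1 are also counted in another list. The J-domain list was mixed, with 3 that rose, DNAJB9 (1.45) the most, and 3 that fell. The HSP70 relatives were mixed too, with HSPA13 (1.09) and HSPA5 (0.84), the endoplasmic reticulum HSP70, higher and HSPA4 (-0.82), HSPA14 (-0.78) and HSPA2 (-0.66) lower, the last named after its value was seen. Without 24-h experiment 2 HSPA5 was under the threshold of 0.6, at 0.57. HSF2 was 0.61 higher (SE 0.11, adjusted p = 0.0014).

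**Figure D5:**
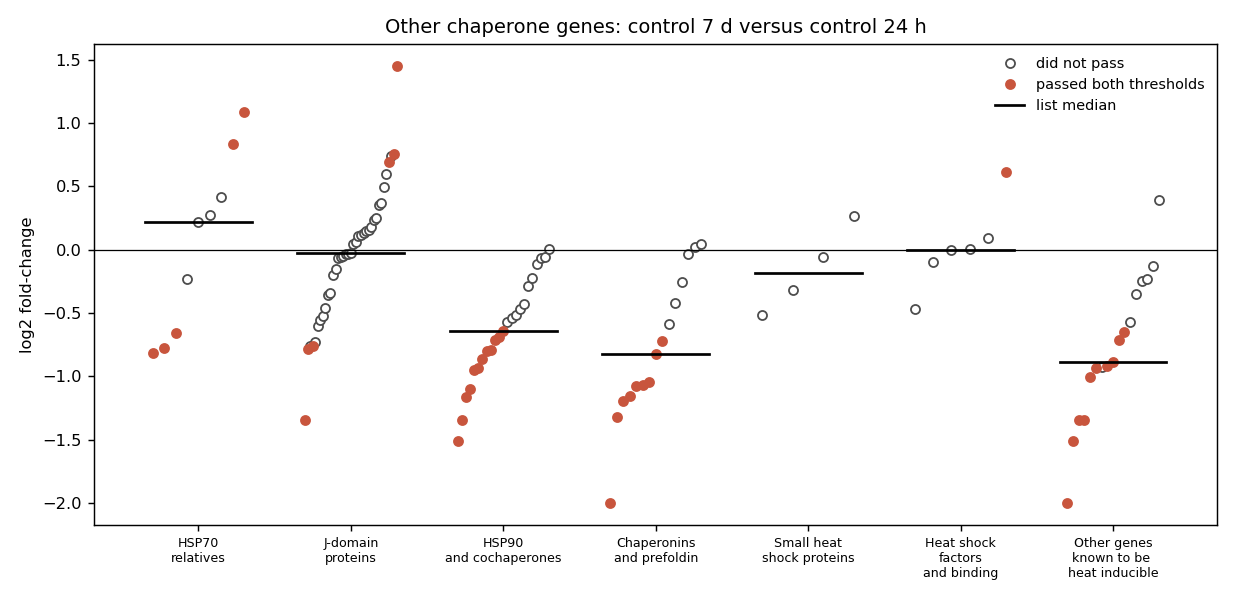
Log2 fold-changes of the tested genes of 7 lists between the 7-day and the 24-h controls, with a point for each gene, filled where it passed both thresholds, and a bar at the list median. The medians are -0.64 for HSP90 and cochaperones, -0.83 for chaperonins and prefoldins and -0.88 for other heat-inducible genes, and 0.22 for HSP70 relatives.

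The genes whose profile was most like that of HSPA6 were found by the root-mean-square difference of log2(CPM + 0.1), centred on each gene's mean, over all 15 libraries. They were EGR1 (0.60), SERPINB2 (0.74), DUSP2 (0.76), CYP4F11 (0.86) and PTX3 (0.92), all outside the chaperone lists. EGR1, an immediate-early transcription factor, had means of 23.7 CPM in the 24-h controls, 24.1 CPM at 1 µg/cm2, 804.7 CPM at 30 µg/cm2, 43.96 CPM in the 7-day controls and 69.9 CPM after daily exposure. For DNAJB1 the closest were CLPB (0.12), PCBP1 (0.13), SF3B3 (0.14), WDR1 (0.14) and KARS1 (0.15), and CLPB encodes a mitochondrial disaggregase. These values describe likeness over libraries that share groups and experiments.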

How the data were processed

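Single-end reads of 50 bases were aligned by the authors with STAR 2.5.3 to GRCh38 (methods; the labels list hg19) and deposited raw counts per gene from featureCounts, without normalization. Gene positions in the table fall on GRCh38 (99.95% overlap the same gene in GENCODE release 44). The annotation, the strand setting and the handling of reads with several matches are not given in the sources used here. Exon lengths deposited beside the counts were used for CPM per kb.

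Counts were analysed with edgeR 4.0.16 in R 4.3.3 by the quasi-likelihood test in its earlier mode. Genes were filtered by filterByExpr (17599 kept), scaled by TMM and fitted to all 15 libraries with 1 mean per condition, and p-values were adjusted over all tested genes. Library totals were 21460981 to 34724765 counts. The series record gives the replicate number as an experimental batch, so the number was used as a replicate block in a second fit. Deviations of same-number libraries from their group means had correlations across genes of 0.201 to 0.721 at 24 h and 0.121 to 0.181 at 7 days. Libraries with different numbers had -0.683 to 0.453 at 24 h and -0.127 to -0.0341 at 7 days, so the ranges overlapped at 24 h. The means at 24 h were 0.529 for the same number and -0.231 for different numbers. Groups come from sample titles.

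Alternatives were other scalings and filters, the compared libraries only, the block, edgeR's current mode, the adjusted p alone, DESeq2 1.42.0, HSPA1A and HSPA1B summed, 1 library left out at a time and 24-h experiment 2 left out. Named were all members, HSF1 and HSF2, annotated copies, up to 4 passing genes with the largest change per list and comparison, and the 5 genes most like HSPA6 and DNAJB1. Members, lists and alternatives were chosen with earlier results of these data known.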

Additional observations from a re-analysis of the deposited data

Results flagged for a closer look

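HSPH1 and HSPD1 went opposite ways after single and after daily exposure to 1 µg/cm2, in every experiment: all 3 experiments were below their control at 24 h and all 3 above it at 7 days. The log2 changes of HSPH1 were -0.46, -0.17 and -0.35 at 24 h and 0.05, 0.05 and 0.38 at 7 days. Those of HSPD1 were -0.50, -0.14 and -0.42 at 24 h and 0.08, 0.13 and 0.05 at 7 days, where its exposed and control libraries overlapped. The share of all genes with such a switch was not counted. For HSPH1 the difference between the responses was 0.53 on the log2 scale and for HSPD1 0.48. By edgeR's quasi-likelihood test of that difference neither passed (adjusted p = 0.89 and 0.847).

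The responses of HSPB1 to daily and to single exposure differed by -0.72 on the log2 scale in edgeR's test with the replicate block (adjusted p = 0.0475). In that fit 1.03% of all genes passed. HSPB1 did not pass without the block (-0.79, adjusted p = 0.778). Without 24-h experiment 2, also fitted without the block, it was at -0.55 (adjusted p = 0.013), under the threshold of 0.6. The 3 experiments changed by -0.08, 0.32 and -0.28 at 24 h and by -0.60, -0.79 and -0.80 at 7 days.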

How the results depend on the processing

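HSPA6 passed at 30 µg/cm2 against control and against 1 µg/cm2 under every alternative run. With the replicate block, the genes that passed went from 1 to 2 of the 9 at 30 µg/cm2, from 0 to 1 after daily exposure, from 1 to 4 between the concentrations, from 0 to 1 for the daily minus the single response to 1 µg/cm2 and from 0 to 2 for the daily response minus that to 30 µg/cm2. Network genes went from 8 to 13, 0 to 1, 9 to 16 and, in the last comparison, 0 to 14, beside 15.2%, 4.39%, 15.6% and 14.6% of all genes with the block. The block turned the direction of uncalled log2 fold-changes of HSPA8 (0.077) and HSPD1 (0.069) at 30 µg/cm2, of HSPB1 (-0.0090) at 1 µg/cm2 and of HSP90AA1 (0.048) between the concentrations. It changed no other call. The controls of both protocols share no experiment and could not be blocked.

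Without 24-h experiment 2, 4 of the genes passed at 30 µg/cm2, 1 at 1 µg/cm2 and 2 for the daily response minus that to 30 µg/cm2. Network genes were 15 at 30 µg/cm2, 1 at 1 µg/cm2, 20 between the concentrations, 10 for the daily minus the single response and 23 for the daily response minus that to 30 µg/cm2, beside 19.1%, 2.11%, 17.3%, 9.84% and 21.6% of all genes. Directions turned for DNAJB1 (-0.14) at 30 µg/cm2, HSPB1 (-0.18) at 1 µg/cm2, BAG3 (-0.029) between the concentrations, and HSPH1 (0.10) and HSPA8 (0.13) for the daily response minus that to 30 µg/cm2.

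Fitting the compared libraries only gave 1 gene after daily exposure and 1 for the daily response minus that to 30 µg/cm2, and 0, 1, 0 and 1 network genes at 30 µg/cm2, after daily exposure, between the concentrations and for that last difference, beside 2.23%, 6.23%, 0.918% and 2.47% of all genes. For that difference DESeq2 gave 1 gene and 3 network genes beside 4.48% of all genes, and no filter gave 1 gene. Total-count scaling left 3 of 6 genes between the controls and turned HSP90AA1 after daily exposure (0.0090). HSPB1 between the controls turned under RLE scaling (-0.0086), a filter at 1 CPM (-0.0035), the compared libraries only (-0.00072) and DESeq2 (-0.0088). The cause of these shifts was not tested.

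Leaving out 1 library at a time gave 1 to 2 genes between the concentrations and 0 to 1 for the daily response minus that to 30 µg/cm2, with 3 to 15 network genes at 30 µg/cm2, 5 to 16 between the concentrations and 0 to 11 for that difference. In the order of these network counts, 794 to 2706, 711 to 2715 and 131 to 1459 of 17978 to 18100 tested genes passed. Log2 fold-changes whose direction turned ranged, at 30 µg/cm2, from -0.10 to 0.26 (DNAJB1), -0.094 to 0.47 (HSPH1), -0.25 to 0.0034 (BAG3), -0.60 to 0.14 (HSPA8) and -0.29 to 0.18 (HSPD1). At 1 µg/cm2 the range was -0.45 to 0.34 (HSPB1) and after daily exposure -0.17 to 0.023 (HSP90AA1). Between the concentrations it was -0.33 to 0.15 (HSP90AA1) and -0.060 to 0.16 (BAG3), and between the controls -0.17 to 0.26 (HSPB1). For the daily minus the single response it was -0.22 to 1.22 (HSPA6), -0.49 to 0.48 (HSPA1A), -0.26 to 0.0015 (BAG3) and -0.20 to 0.54 (HSPA8), and for the daily response minus that to 30 µg/cm2 -0.30 to 0.27 (HSPH1), -0.32 to 0.24 (HSPB1), -0.69 to 0.046 (HSPA8) and -0.091 to 0.38 (HSPD1). Depth limits HSPA6 outside 30 µg/cm2 (1 to 78 reads per library) and HSPA1A (6 to 61 reads).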
